A study of Mus musculus with 13 samples.

Results

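The genes described here encode the ligands Nodal and Gdf3, the Nodal co-receptor Tdgf1 (also called Cripto) and the secreted Nodal inhibitors Lefty1 and Lefty2. They were chosen by gene symbol, as table rows whose platform annotation gives that symbol alone, with the highest mean kept per gene. Of the 5 genes named, 4 had such a row (1 row each), of 14860 genes with a row of their own. Lefty2 was not analysed here, since no row carries its symbol. By the GRCm38.p6 annotation of RefSeq, Nodal lies on chromosome 10, Gdf3 on chromosome 6, Tdgf1 on chromosome 9 and Lefty1 on chromosome 1, where Lefty2 lies too. Lefty1 and Lefty2 are close paralogs, and RefSeq lists pseudogenes of Tdgf1. Which probes could also bind RNA of these relatives was not tested, so the Lefty1 and Tdgf1 values carry that uncertainty.

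The study followed mouse embryonic fibroblasts (MEF) on their way to induced pluripotent stem (iPS) cells. Affymetrix exon arrays for mouse, 13 in all, measured the RNA, each condition once. The fibroblasts without treatment were the parental MEF, 6C-secondary MEFs at day 0 and 1B-secondary MEFs at day 0. The 6C and 1B lines carry reprogramming factors behind a promoter that doxycycline (Dox) switches on. The labels used here do not name those factors, the mouse strain or the age of the embryos. Secondary fibroblasts of such lines are usually grown from embryos made with a first round of iPS cells, so that every cell carries the same insertions; each line then stands for 1 clone. The 6C cells received 1.5 µg per ml of Dox and were taken at days 2, 5, 8, 11, 16 and 21. The 6C-secondary iPS cells were taken at day 30, and the 6C-primary iPS cells have no day. The labels call both Dox independent, yet give Dox as their agent, and which holds was not settled. The 1B cells were taken after 5 days of Dox, also at 1.5 µg per ml, and after 5 further days without it. All cells, the untreated ones included, were grown in mouse embryonic stem cell medium.

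Nodal and Gdf3 are secreted proteins of the TGF-beta family. Nodal signals through activin receptors with the help of Tdgf1, a membrane-anchored co-receptor, and the signal reaches the nucleus through Smad2 or Smad3 with Smad4, where Foxh1 is a DNA-binding partner. Lefty proteins block the ligand and its co-receptor and are themselves induced by the pathway, which makes a negative feedback loop. The pathway patterns the early mouse embryo, and its genes are transcribed in the epiblast and in cultured pluripotent cells, where Tdgf1 and Gdf3 are widely used markers. Fibroblasts are not known for Nodal expression.

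The promoters of the genes that appeared earliest and latest in the series are shown for reference. The RefSeq promoter table of build GRCm38.p6 held an entry for 2 of the 5 genes, Tdgf1 and Nodal. The 250 bases before the transcription start are given from 5′ to 3′ on the gene's strand, for Tdgf1 chr9:110946159-110946408 (minus strand) and for Nodal chr10:61417722-61417971 (plus strand). Capitals mark matches, on either strand, to CAGAC (the core of SMAD sites), AATNCACA (FOXH1), GGGNGTGG (KLF factors) and ATGCAAAT (the octamer of POU factors), a set chosen with these sequences in view.
Tdgf1: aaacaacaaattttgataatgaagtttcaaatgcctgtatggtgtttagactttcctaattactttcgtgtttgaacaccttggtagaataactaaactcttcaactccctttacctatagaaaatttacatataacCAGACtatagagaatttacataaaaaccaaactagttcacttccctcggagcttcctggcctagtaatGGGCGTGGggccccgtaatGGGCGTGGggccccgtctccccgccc
Nodal: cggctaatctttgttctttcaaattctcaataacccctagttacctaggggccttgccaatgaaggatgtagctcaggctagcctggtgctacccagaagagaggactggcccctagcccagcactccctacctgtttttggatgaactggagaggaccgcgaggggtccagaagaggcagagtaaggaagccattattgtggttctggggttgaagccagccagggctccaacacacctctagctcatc
The Tdgf1 window held 1 CAGAC match, starting at -113 from the transcription start, and 2 GGGNGTGG matches, starting at -45 and -26. No match overlapped another. The latter pair sits in a unit of 19 bases, gtaatGGGCGTGGggcccc, that is repeated in tandem from -50. Of 32851 promoter windows of the same length, 42.2% held CAGAC, 15.9% held GGGNGTGG at least once and 2.81% held it 2 or more times. The Nodal window held none of these letters, and AATNCACA (3.18% of windows) and ATGCAAAT (1.60%) were in neither window. These are matches of letters and do not show binding, which the arrays do not measure.

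Values are the authors' RMA values on a log2 scale, so a difference of 1 is a 2-fold difference; RMA compresses low values, and levels of different genes cannot be set against each other. Some arrays stood apart. The array of 6C at day 0 was the dimmest, with the other medians 0.026 to 0.329 above its median. Array names give 4 runs, which are not stated to be anything else: run 1 held 6C days 0 and 21, run 2 parental MEF, primary iPS cells and 6C days 2, 5, 11 and 16, run 3 the 1B arrays, and run 4 secondary iPS cells and 6C day 8. The array labelled 6C day 0 has a name that speaks of day 2 without Dox, and the array labelled day 8 one that speaks of day 9; the sample labels were followed. Against markers of the labelled cells, the pluripotency list (9 genes measured) lay at a median of 6.66 and 6.92 above the untreated mean in secondary and primary iPS cells. The fibroblast list (10 genes) lay at -1.86 and -4.68, so fibroblast genes stood higher in secondary than in primary iPS cells. In RNA of whole cultures, fewer cells of a type and less RNA per cell cannot be told apart.

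The level of each gene in every array is taken first. Tdgf1 stood at 6.43 in parental MEF, 4.21 in 6C day 0 and 4.48 in 1B day 0. In 6C with Dox it stood at 5.36 on day 2, 7.08 on day 5, 8.82 on day 8, 10.10 on day 11, 10.49 on day 16 and 12.11 on day 21. In secondary iPS cells it reached 13.49 and in primary iPS cells 13.23. Each 6C array with Dox lay above the one before it, and no other member had so wide a range, 9.28 from lowest to highest array. The untreated arrays were less alike for Tdgf1 than for the other members, with a range of 2.22 among them. Day 5 was the first 6C array above all untreated arrays.

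Gdf3, a ligand related to Nodal and a marker of pluripotent cells, stood at 4.87 in parental MEF, 5.45 in 6C day 0 and 4.51 in 1B day 0. The 6C arrays with Dox held 5.25 on day 2, 7.13 on day 5, 8.47 on day 8, 9.01 on day 11, 8.81 on day 16 and 9.58 on day 21. Secondary iPS cells stood at 10.69 and primary ones at 10.59. Day 2 lay among the untreated arrays, day 5 lay above all of them, and day 8 lay 1.34 above day 5. The step from day 8 to day 11 was 0.54, just over the SD of the untreated arrays (0.47, n = 3), and days 11 and 16 differed by less than that SD.

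Lefty1, the inhibitor, stood at 6.23 in parental MEF, 6.58 in 6C day 0 and 6.28 in 1B day 0. From day 2 to day 11 of Dox the 6C arrays held 6.32, 7.0, 6.89 and 6.76. Day 16 held 7.97 and day 21 held 8.93, while secondary iPS cells reached 12.58 and primary ones 10.75. Days 5, 8 and 11 lay within 0.42 of the highest untreated array, and days 16 and 21 stood above all earlier arrays. The iPS arrays differed from each other by 1.83 for Lefty1, against 0.39 for Nodal, 0.26 for Tdgf1 and 0.10 for Gdf3. Lefty1 was the 1 gene of 4 at least 2-fold higher in secondary than in primary iPS cells, where 7.94% of all clusters were.

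Nodal itself stood at 5.78 in parental MEF, 6.33 in 6C day 0 and 5.86 in 1B day 0. The 6C arrays with Dox held 5.78 on day 2, 5.78 on day 5, 6.26 on day 8, 6.32 on day 11, 6.85 on day 16 and 6.70 on day 21. Secondary iPS cells stood at 9.95 and primary ones at 9.56. The 11 arrays that were not iPS cells lay within 1.07 of each other, and a gap of 2.71 separated the highest of them, day 16, from the lower iPS array. In the order of the levels, no neighbouring arrays from 1B after withdrawal up to 6C day 16 differed by more than the SD of the untreated arrays (0.30, n = 3).

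**Figure D1:**
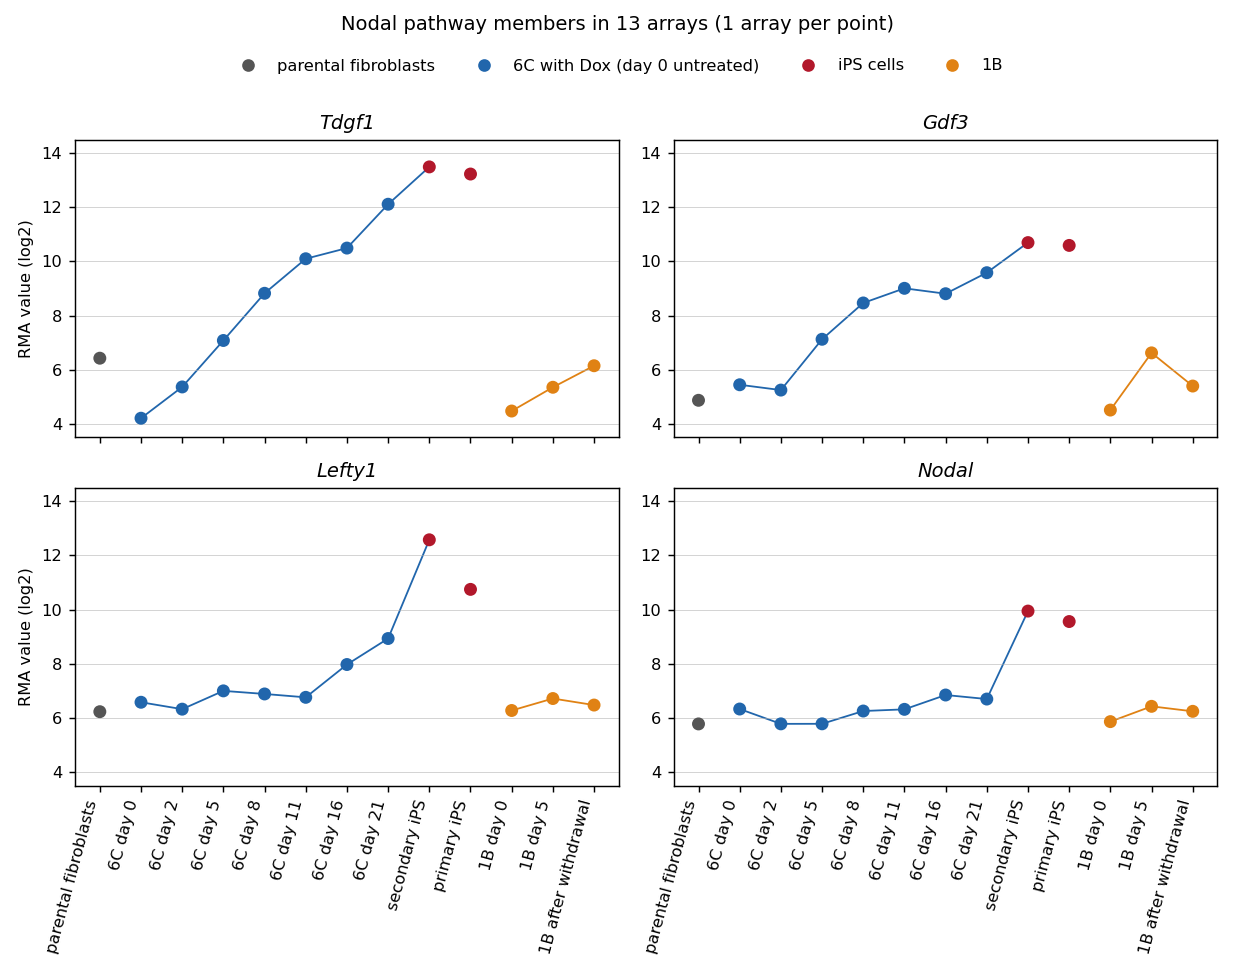
RMA values (log2, vertical axis) of Tdgf1, Gdf3, Lefty1 and Nodal in each of the 13 arrays (horizontal axis), 1 point per array, with lines joining the 6C and the 1B arrays in order of time. Tdgf1 and Gdf3 climb through the days of Dox, Lefty1 stands higher from day 16, and Nodal lies between 5.78 and 6.85 in every array that is not of iPS cells.

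Cells at the end of the process, 2 iPS arrays, were set against the 3 arrays of fibroblasts without Dox. All 4 measured genes were higher in iPS cells, and none of their iPS arrays overlapped the untreated ones. Tdgf1 showed a log2 difference of 8.32 (SE 0.69; 319.6-fold), from 5.04 ± 1.21 (SD, n = 3) to 13.36 ± 0.19 (SD, n = 2), with an adjusted p = 0.00577 by limma. Gdf3 was higher by 5.70 (SE 0.34; 52.0-fold), from 4.94 ± 0.47 to 10.64 ± 0.07, with an adjusted p = 0.00276 by limma. For Lefty1 the difference was 5.30 (SE 0.55; 39.4-fold), from 6.36 ± 0.19 to 11.66 ± 1.29, with an adjusted p = 0.00943 by limma. Nodal had the smallest difference, 3.76 (SE 0.30; 13.6-fold), from 5.99 ± 0.30 to 9.75 ± 0.27, with an adjusted p = 0.00548 by limma.

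Of the 4 genes 4 were called higher (adjusted p under 0.05 over all 23332 clusters and at least 2-fold), where 5.44% of all clusters were. Arrays did not overlap, with iPS cells higher, for 4 of 4, where this held for 22.2% of all clusters. Their median difference was 5.50, beside -0.025 over all clusters. Among all clusters ordered by the size of the rise, Tdgf1 ranked 2, Gdf3 24, Lefty1 36 and Nodal 109. The labels name no separate cultures, and the 3 untreated arrays are of 3 cell sources, so the p-values measure the spread between these arrays. Within run 2 alone, primary iPS cells exceeded parental MEF by 6.80 for Tdgf1, 5.72 for Gdf3, 4.52 for Lefty1 and 3.78 for Nodal, with 1 array each and no test. Without the primary iPS array, Nodal (3.95, adjusted p = 0.0507 by limma) and Tdgf1 (8.45, adjusted p = 0.0647) missed the threshold, and without 1B day 0 Lefty1 did (5.26, adjusted p = 0.0579). The size for Lefty1 rested on which iPS array was used, at 4.39 without the secondary and 6.22 without the primary iPS array, and that for Tdgf1 was 9.01 without the parental array. The number of called clusters also fell, to 80 without the primary iPS array and 141 without 1B day 0, in place of 2044.

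The 6C series asked when the genes rose. A polynomial of day of degree 3 was fitted over 8 arrays, days 0 to 21 with the secondary iPS cells as day 30, and a gene was called if limma's F test had an adjusted p under 0.05 and the curve left day 0 by at least 2-fold. This series shares the 6C day 0 and secondary iPS arrays with the comparison of iPS and untreated cells, so the calls are not independent. All 4 genes were called with the curve above day 0 at day 30, where 3.87% of all clusters were. The fitted rise to day 30 was 9.42 for Tdgf1 (SE 0.46, adjusted p = 0.00393), 6.06 for Lefty1 (SE 0.39, adjusted p = 0.00393), 5.74 for Gdf3 (SE 0.63, adjusted p = 0.0159) and 3.86 for Nodal (SE 0.49, adjusted p = 0.0195), all by limma.

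The onset, the first sampled day on which the curve lay over 2-fold from day 0, fell on day 2 for Tdgf1 and Gdf3, day 16 for Lefty1 and day 21 for Nodal. By the array values themselves, the first day over 2-fold above day 0 was day 2 for Tdgf1, day 5 for Gdf3, day 16 for Lefty1 and day 30 for Nodal. Those days rest on the single 6C day 0 array. On day 2 Tdgf1 stood at 5.36, above 6C day 0 (4.21) but below parental MEF (6.43). On day 16 Nodal stood at 6.85, beside 6.33 in 6C day 0 and 5.78 in parental MEF. Of all clusters 11.9% were at least 2-fold above day 0 on day 2, 14.6% on day 5, 17.5% on day 16 and 16.1% on day 30. The smooth curve placed Gdf3 and Nodal earlier than their arrays did. The Gdf3 array at day 2 lay at -0.20 from day 0 where the curve gave 1.07, and the Nodal array at day 21 lay at 0.37 where the curve gave 1.09.

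Tests of single fitted days against day 0 were taken from the same curves, so they are no separate support for the order of onset. They placed Gdf3 after Tdgf1, where the onset by the curve put both on day 2. At days 2 and 5 only Tdgf1 was called, by 1.42 (SE 0.17, adjusted p = 0.0436 by limma) and 3.19 (SE 0.32, adjusted p = 0.0276), where 0.236% and 0.827% of all clusters were called higher. At day 8 Gdf3 joined it, by 3.17 (SE 0.53, adjusted p = 0.0433 by limma), where 1.73% were called. The same pair was called at days 11 and 16, where 2.84% and 4.53% of clusters were. Lefty1 missed the threshold at day 16 (1.28, SE 0.31, adjusted p = 0.0652 by limma) and was called at day 21 (2.44, SE 0.31, adjusted p = 0.0105), where 4.13% were called. Nodal was not called at day 21 (1.09, SE 0.39, adjusted p = 0.152 by limma) and was called at day 30 (3.86, SE 0.49, adjusted p = 0.0176), where 2.99% were. These contrasts come from 1 curve per gene, so neighbouring days are not independent of each other.

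The share of the log2 rise from day 0 to the secondary iPS array describes the course without a test. At day 11 Tdgf1 had covered 63.5% of its rise and Gdf3 67.8%, while Lefty1 had covered 3.03% and Nodal -0.33%. At day 21 the shares were 85.1% for Tdgf1, 78.8% for Gdf3, 39.2% for Lefty1 and 10.2% for Nodal. For comparison, Nanog, a transcription factor of pluripotent cells, stood at 67.9% at day 11 and 90.7% at day 21. Sox2, another such factor, added here after its values were seen, stood at 23.9% and 54.9%. Pou5f1, which encodes Oct4, had passed its iPS level by day 2 (104.2%), in a line in which Dox switches on introduced factors.

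The step from day 21 to the secondary iPS array was 3.65 for Lefty1, 3.25 for Nodal, 1.38 for Tdgf1 and 1.11 for Gdf3. All 4 were at least 2-fold higher across it, where 9.04% of all clusters were. By this step Lefty1 ranked 36 and Nodal 52 among all clusters, and Tdgf1 and Gdf3 ranked 993 and 1709. Between days 2 and 5 Gdf3 and Tdgf1 had the larger steps: the step was 1.88 for Gdf3 and 1.72 for Tdgf1, 0.68 for Lefty1 and 0.002 for Nodal. At least 2-fold higher at that step were 2 of 4, where 6.03% of all clusters were.

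**Figure D2:**
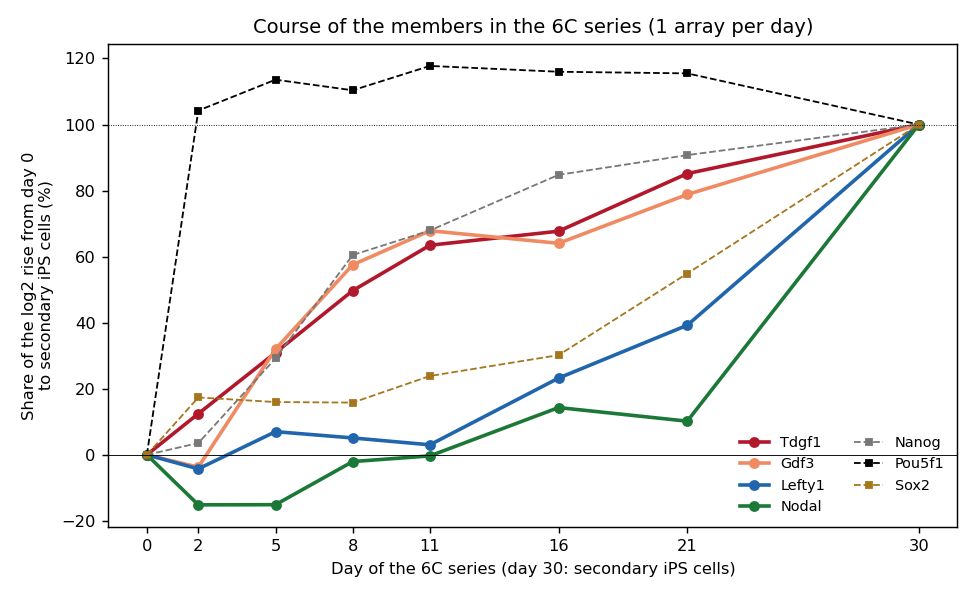
Share of the log2 rise between the day 0 array and the secondary iPS array (vertical axis, %) against day (horizontal axis) in the 6C series, 1 array per day, for the 4 members (solid lines) and for Nanog, Pou5f1 and Sox2 (dashed lines). Tdgf1 and Gdf3 lie near Nanog, at 63.5% and 67.8% on day 11, while Nodal lies at 10.2% on day 21.

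Arrays of a single run gave the same picture for the early genes. In run 2 the difference between days 16 and 2 was 5.13 for Tdgf1, 3.56 for Gdf3, 1.65 for Lefty1 and 1.07 for Nodal. In run 1 the difference between days 21 and 0 was 7.90, 4.14, 2.35 and 0.37 in that order, and in run 4 that between day 30 and day 8 was 4.67, 2.23, 5.69 and 3.69. With run as a term in the fit, which left 2 residual degrees of freedom, limma called none of the 4 genes and no cluster at all, while an unadjusted p under 0.05 was found for 4 of 4 genes and 6152 clusters. The 4 adjusted p-values were then between 0.0721 and 0.109, and the fitted rises 10.22 for Tdgf1, 6.71 for Gdf3, 6.06 for Lefty1 and 3.07 for Nodal. Over days 0 to 21 alone, without the iPS array, the call held for Tdgf1 and was lost for Gdf3 (4.48, adjusted p = 0.0667 by limma), Lefty1 (2.47, adjusted p = 0.0906) and Nodal (0.45, adjusted p = 0.306). Without day 11 the call was lost for Nodal alone (3.84, adjusted p = 0.0568 by limma).

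Macrophage markers (6 genes) moved in the middle of the series, with a median of 2.44 above the untreated mean at day 8 and -0.19 at day 16. Cd68 went apart from the rest of this list. At day 16 its curve lay 2.91 above day 0 (adjusted p = 0.0199 by limma). The curves of the others lay between -0.03 (Csf1r) and 0.87 (Adgre1) from day 0. Tdgf1 stood at 8.82 on day 8 and 10.49 on day 16, and Gdf3 at 8.47 and 8.81. These are single arrays of different runs. The fibroblast list stood at -0.05 on day 0, 0.14 on day 5, -0.20 on day 8, -0.93 on day 11 and -1.99 on day 21. These medians hide genes that went different ways. At day 8 the curves lay 4.22 above day 0 for Lum and 2.85 for Dcn. They lay at -1.50 for Col1a1 and -1.47 for Pdgfrb, and none of these passed the test of that day. On day 8 Gdf3 had covered 57.5% and Tdgf1 49.7% of the rise to the secondary iPS level. The epithelial list (5 genes) moved in the same days as Tdgf1 and Gdf3, at -0.37 on day 2, 2.81 on day 5, 5.02 on day 8, 6.07 on day 11 and 5.17 on day 21. In secondary and primary iPS cells it stood at 3.54 and 5.28, and in 1B at 4.39 on day 5 and 3.26 after withdrawal. The genes of this list were not alike either. Over both lines, the mean day 5 change was 4.72 for Cdh1, 5.68 for Epcam and 3.24 for Cldn4. For Krt18 and Cldn6 it was -0.89 and -0.13, and none of the 5 was called. The median of the primed epiblast list (5 genes) stood between -0.14 and 0.44 through day 21. In secondary and primary iPS cells, where Nodal was high too, it stood at 1.85 and 1.61. Its genes did not move together. At day 21 the curves lay 3.29 above day 0 for Dnmt3b and 2.80 for Otx2. For Zic2, Pou3f1 and Fgf5 they lay 0.42, 0.14 and 0.03 above it. The part of these lists in the results was not tested.

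Both lines entered 1 fit to ask what 5 days of Dox had changed, over 4 arrays and with the line held constant. None of the 4 genes passed limma's test, nor did any cluster (0%), while an unadjusted p under 0.05 was found for 2 of 4 genes and 1770 clusters. In 6C Tdgf1 went from 4.21 to 7.08, and in 1B it went from 4.48 to 5.35, a mean change of 1.87 (SE 0.61, adjusted p = 0.643 by limma). For Gdf3 the 6C values were 5.45 and 7.13 and the 1B values 4.51 and 6.62, a mean change of 1.90 (SE 0.37, adjusted p = 0.575 by limma). As deposited, the Gdf3 change was 1.68 in 6C and 2.11 in 1B, against 1.45 and 2.34 with quantile normalization and 1.35 and 2.25 with arrays centred on the median. The Tdgf1 change was 2.87 in 6C and 0.88 in 1B, against 2.67 and 0.98 with quantile normalization and 2.54 and 1.01 with centring. Lefty1 changed by 0.42 in 6C and 0.44 in 1B (mean 0.43, SE 0.35, adjusted p = 0.826 by limma), and Nodal by -0.55 and 0.56 (mean 0.009, SE 0.45, adjusted p = 0.999 by limma). The Lefty1 change in 6C depended on the scaling, at -0.03 with quantile normalization and 0.09 with centring, where 1B had 0.62 and 0.58.

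In 6C at day 5, 2 of 4 genes were at least 2-fold higher than at day 0 (14.6% of all clusters), and in 1B 1 of 4 was, where 9.49% were. With centring Tdgf1 passed 2-fold in 1B too. Nanog changed by 5.15 in 1B and 2.21 in 6C, so the 1B array was further along for Nanog and less far for Tdgf1. With 1 array per line and day, differences between the lines were not tested. At day 5 the fibroblast list lay at -4.58 from the untreated mean in 1B and at 0.14 in 6C.

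Withdrawal of Dox in 1B asked which of these changes lasted. Gdf3 stood at 4.51 untreated, 6.62 at day 5 and 5.40 after 5 days without Dox, and so kept 42.0% of a day 5 change of 2.11. Pou5f1 kept 10.9% of a change of 7.58 and Nanog 17.2% of a change of 5.15. The labels do not name the factors that Dox switches on, so introduced and native Pou5f1 RNA were not told apart. What was left above day 0 was similar in size, 0.89 for Gdf3, 0.83 for Pou5f1 and 0.88 for Nanog, so the shares differ with the size of the day 5 change. The Gdf3 level after withdrawal lay within the range of the untreated arrays, below 6C day 0 at 5.45. Gdf3 was the 1 gene of 4 to lie at least 2-fold lower than at day 5, where 11.8% of all clusters did. Tdgf1 stood at 4.48, 5.35 and 6.15, higher after withdrawal than at day 5, and was the 1 gene of 4 at least 2-fold above day 0 (1.67), where 3.38% of all clusters were. Its level after withdrawal lay below that of the parental MEF, 6.43. Lefty1 stood at 6.28, 6.72 and 6.48 and Nodal at 5.86, 6.43 and 6.25, changes under 2-fold throughout.

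**Figure D3:**
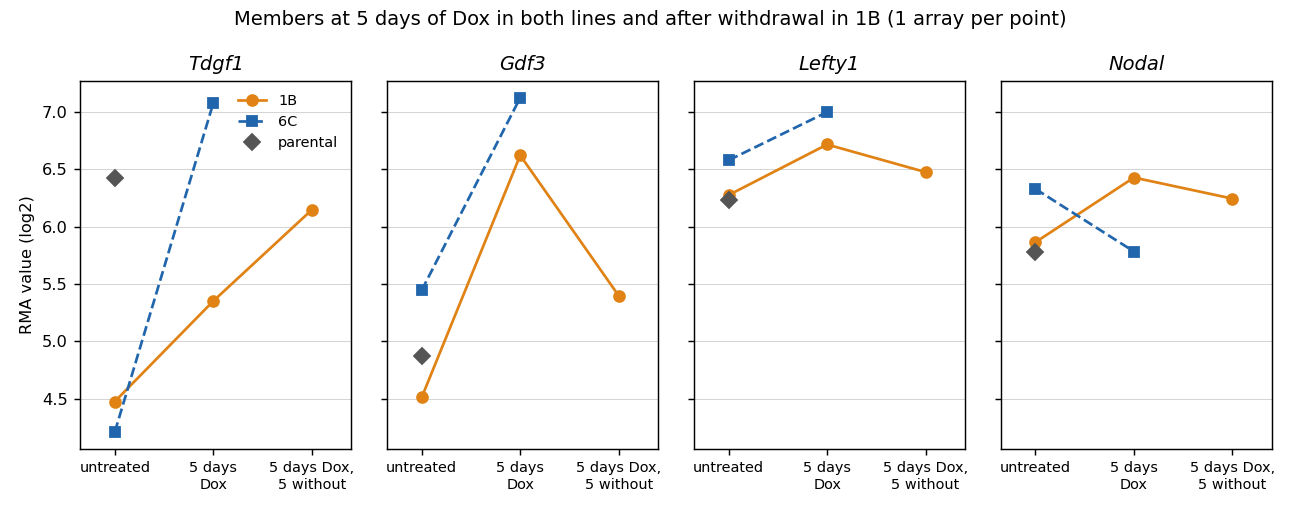
RMA values (log2, vertical axis) of the 4 members in untreated cells, after 5 days of Dox and, in 1B, after 5 further days without Dox (horizontal axis), 1 array per point, with the parental fibroblasts as a diamond. In 1B Gdf3 goes from 6.62 to 5.40, while Tdgf1 goes from 5.35 to 6.15.

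The rest of the pathway was followed in lists of genes by role, chosen with earlier results of these data known. Of 41 further genes 34 were measured; limma called 4 of them higher and 4 lower between iPS and untreated cells, where 5.44% of all clusters were called higher and 3.32% lower. Their median difference was 0.21, beside -0.025 over all clusters. In the 6C series 3 were called with the curve higher at day 30 than at day 0 and 2 with it lower. Of all clusters 3.87% and 2.49% were. These calls are of whole curves. Among the genes called, only Hhex passed the test of day 30 itself (adjusted p = 0.0214 by limma). Of the 34 genes, 26 had no call in iPS cells and 29 none in the series. The calls of these other genes were fragile: without the primary iPS array or without 1B day 0, none of the 8 remained in iPS cells, without the parental array or 6C day 0 only Foxh1 did, and without the secondary iPS array 4 did. In the 6C series none of the 5 remained without day 0, 5, 11, 21 or 30 or with run as a term, Fst alone remained without day 2, Fstl3 alone without day 8, and Fstl3 and Dact2 without day 16.

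Among ligands, Inhba, which encodes the activin A subunit, was lower in iPS than in untreated cells, where Nodal and Gdf3 were higher. It stood at 11.97, 12.30 and 12.55 in the untreated arrays and at 10.53 and 9.13 in secondary and primary iPS cells, a difference of -2.45 (SE 0.46, adjusted p = 0.0352 by limma). In 6C it stood at 12.04 on day 2, 9.66 on day 5 and 8.16 on day 21, and in 1B at 8.08 on day 5 and 13.14 after withdrawal. From 6C day 21 to the secondary iPS array Inhba rose, as Nodal and Gdf3 did. By the F test on its curve, Inhba was not called (adjusted p = 0.105 by limma). The other EGF-CFC co-receptor, Cfc1, stood between 5.65 and 6.41 in all arrays, with a difference of 0.28 (SE 0.29) in iPS cells.

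Among receptors, the type II receptor Acvr2b was higher in iPS cells by 2.24 (SE 0.33, adjusted p = 0.0222 by limma), standing at 5.88 to 6.11 in untreated cells and at 7.82 and 8.70 in iPS cells. The type I receptor Acvr1b, the main partner of Nodal and activin, was called in the 6C series (adjusted p = 0.0415 by limma), standing at 7.40 on day 0, 9.92 on day 11 and 8.79 in secondary iPS cells. In parental MEF, however, it stood at 8.79, and between iPS and untreated cells it differed by 0.67 (SE 0.44, adjusted p = 0.394 by limma). With quantile normalization its call in the series was lost. Acvr2a differed by -0.78 (SE 0.33, adjusted p = 0.206 by limma). Furin, a protease that cleaves the Nodal precursor, was lower in iPS cells by -1.85 (SE 0.26, adjusted p = 0.0194 by limma), and its relative Pcsk5 differed by -1.05 (SE 0.46, adjusted p = 0.207).

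The inhibitors split. Lefty1 rose, while Fst, which encodes the activin antagonist follistatin, fell in iPS cells by 3.17 (SE 0.69, adjusted p = 0.0469 by limma) and in the 6C series (adjusted p = 0.0467), where its arrays held 10.07 on day 0, 11.48 on day 2 and 8.44 on day 21. Fstl3, a related antagonist, fell in the series, standing at 10.07 at first and at 7.10 on day 21 (adjusted p = 0.0224 by limma), and differed by -2.12 (SE 0.67, adjusted p = 0.106) in iPS cells. Of 7 inhibitors measured, Lefty1 included, 1 was called higher and 1 lower in iPS cells and 5 were not called. Of all clusters 5.44% were called higher and 3.32% lower.

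Of 5 signal carriers measured 1 was called in iPS cells, where 5.44% of all clusters were called higher and 3.32% lower. Foxh1, the partner of the Smad proteins on DNA, was higher in iPS cells by 3.19 (SE 0.31, adjusted p = 0.00851 by limma), standing at 5.17 to 5.22 in untreated cells and at 7.98 and 8.78 in iPS cells. In 6C it stood at 5.06 on day 5, 6.96 on day 11, 5.99 on day 16 and 6.08 on day 21, and its curve was not called (adjusted p = 0.110 by limma). Smad3 differed by -2.14 (SE 0.50, adjusted p = 0.0551 by limma) and Trim33, which binds Smad2 and Smad3, by 1.10 (SE 0.27, adjusted p = 0.0605), both just outside the threshold.

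Of 9 intracellular limiters of the signal, Tgif2, a Smad corepressor, was higher in iPS cells by 1.49 (SE 0.33, adjusted p = 0.0497 by limma). Pmepa1, a target and inhibitor of Smad signalling, was lower by -1.82 (SE 0.28, adjusted p = 0.0237). Pmepa1 stood at 12.59 in 1B day 0, 9.90 at day 5 and 13.14 after withdrawal. Dact2, known to limit Nodal receptors in zebrafish, was called in the 6C series (adjusted p = 0.0236 by limma), standing at 6.49 on day 0, 9.78 on day 11 and 7.68 in secondary iPS cells.

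Of 7 embryonic targets measured 1 was called. Of all clusters 5.44% were called higher in iPS cells and 3.87% in the series. Hhex, a transcription factor of the anterior endoderm, was higher in iPS cells by 2.51 (SE 0.31, adjusted p = 0.0154 by limma) and in the series (adjusted p = 0.0371), standing at 5.20 on day 0, 6.34 on day 5 and 7.53 in secondary iPS cells. Eomes and Mixl1, transcription factors of the primitive streak, differed by 1.22 (SE 0.35, adjusted p = 0.0863 by limma) and 1.04 (SE 0.37, adjusted p = 0.137). The 6 targets other than Hhex were called in neither comparison.

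**Figure D4:**
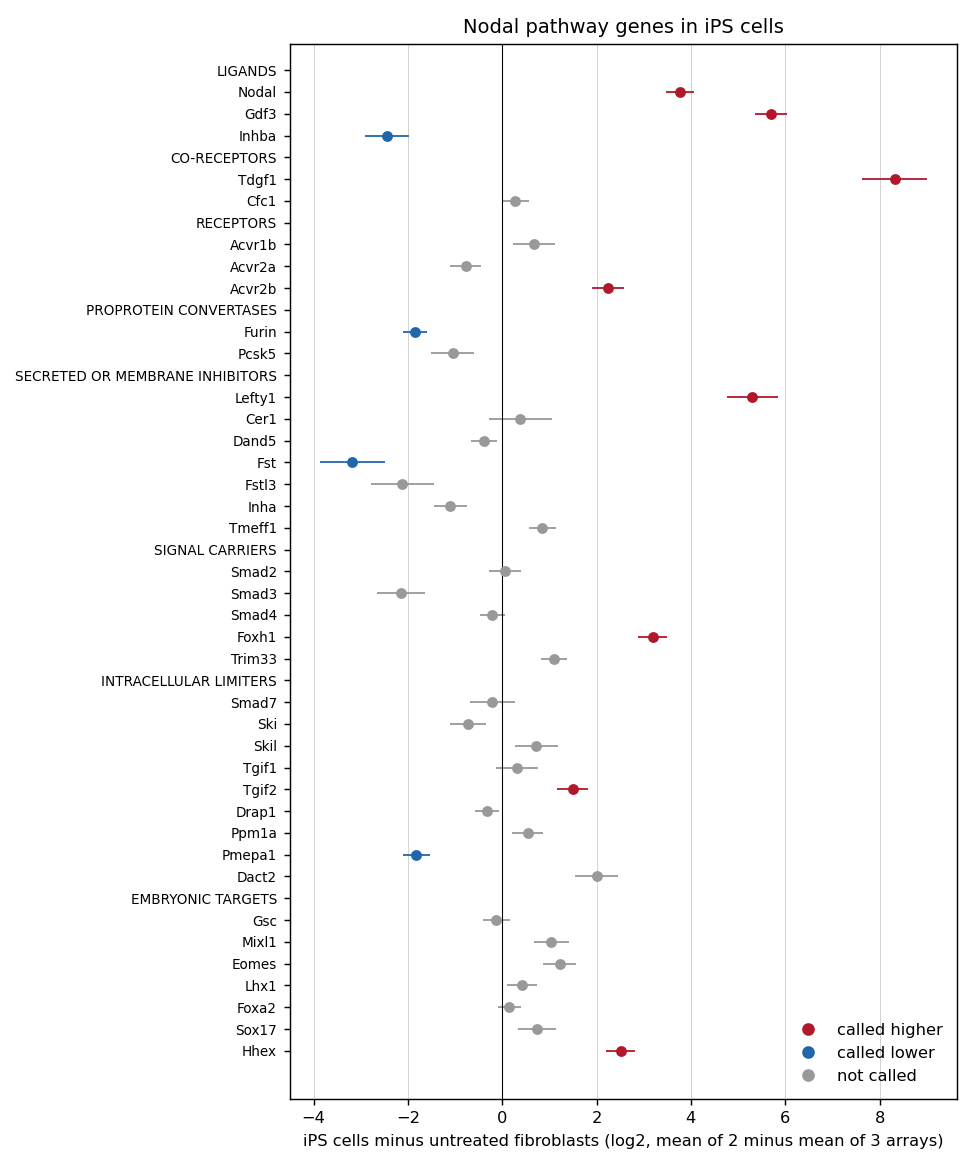
Difference between iPS cells (mean of 2 arrays) and untreated fibroblasts (mean of 3 arrays) on the log2 scale (horizontal axis) for the 38 measured pathway genes by role (vertical axis), with bars of 1 SE from limma. Red points were called higher, blue ones lower and grey ones not called; the 4 members lie at 3.76 to 8.32, and Foxh1 at 3.19 is the next highest.

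**Figure D5:**
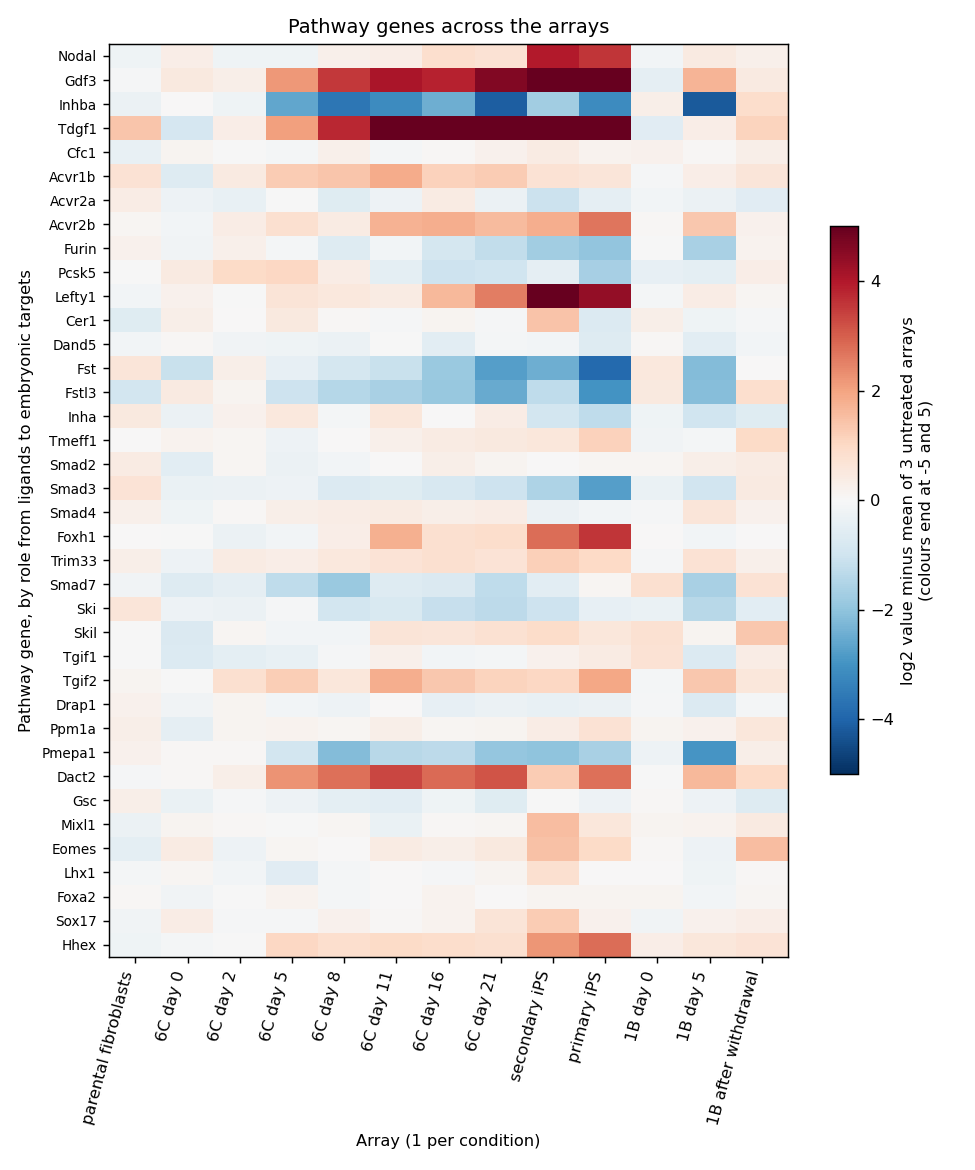
Value of each pathway gene (rows) in each array (columns) minus the mean of the 3 untreated arrays, on a log2 scale shown by colour from -5 (blue) to 5 (red), with larger differences drawn at the end colours. Gdf3 and Tdgf1 are red from day 5 of the 6C series, Lefty1 from day 16 and Nodal in iPS cells, while Inhba is blue from day 5.

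The members fell into pairs by likeness over the 13 arrays, which share a few lines and runs, so the correlations describe these arrays and carry no test. Pearson's r was 0.96 between Tdgf1 and Gdf3 and 0.96 between Nodal and Lefty1. Across the pairs it lay between 0.76 and 0.85. Nodal stood at 5.78 to 6.85 outside iPS cells, with a gap of 2.71 up to the lower iPS array. Its correlations, here and below, therefore rest largely on the iPS arrays. With Nanog, r was 0.94 for Gdf3, 0.90 for Tdgf1, 0.76 for Lefty1 and 0.72 for Nodal. With Sox2, which was added after its values were seen, the other pair came first. There r was 0.93 for Lefty1, 0.92 for Nodal, 0.80 for Tdgf1 and 0.71 for Gdf3. With Pou5f1 it was 0.73 for Gdf3, 0.62 for Tdgf1, 0.39 for Lefty1 and 0.30 for Nodal. The Pou5f1 values may include RNA of an introduced factor, which was not tested.

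Among 4691 other named genes with a range of at least 2 over the arrays, those most like Nodal were Lin28a, which encodes an RNA-binding protein that blocks let-7 maturation (r = 0.99 over 13 arrays), Ubash3a, Prtg and Calb1 (each 0.98). Lin28a stood at 6.71 in 6C day 0, 8.02 at day 21 and 11.44 in secondary iPS cells. Most like Lefty1 were Pecam1, a cell adhesion gene (0.99), Npl (0.99), the germ cell factor Sohlh2 (0.99) and Tdrd12 (0.98). Most like Tdgf1 were Utf1, a chromatin protein of pluripotent cells (0.97), the transcription factor Sall4 (0.96), the Polycomb gene Phc1 (0.96) and the deubiquitinase gene Usp44 (0.96). Gdf3 was most like Usp44 (0.98), Sall4 (0.98), Hap1 (0.97) and Slc37a1 (0.97), so Usp44 and Sall4 stood on both lists.

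Gdf3 lies beside other genes of pluripotent cells on chromosome 6. The next coding genes on its 2 sides by the RefSeq annotation are Apobec1 and Dppa3, and Nanog follows Dppa3. Between iPS and untreated cells Apobec1 differed by 0.009, Dppa3 by 1.86 and Nanog by 7.22, where Gdf3 differed by 5.70. Between days 21 and 0 the differences were 1.54, 0.30 and 6.88, beside 4.14 for Gdf3, with no test of these single arrays. Next to Nodal, Pald1 and Eif4ebp2 differed by 2.47 and 1.12 in iPS cells, and next to Lefty1, Tmem63a differed by -1.81. Lrrc2, next to Tdgf1, differed by 3.70 in iPS cells and by 1.24 between days 21 and 0. One gene further out, the measured neighbours of these members were not higher in iPS cells. Prf1 and Lrrc20 near Nodal differed by -0.25 and -0.39. Als2cl and Rtp3 near Tdgf1 differed by -0.27 and -0.09, and Ephx1 near Lefty1 by -2.11.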

How the data were processed

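Per the submitters' processing notes, the authors made the deposited log2 values with RMA in Affymetrix Expression Console on build mm9, per transcript cluster over core probe sets; the sources used here give neither versions nor the log base, and base 2 was taken from the range of 0.461 to 14.3. Precision is limited by having 1 array per condition. Of 23332 clusters 14996 had 1 platform symbol, 1019 several and 7317 none; 14941 symbols were updated by gene identifier to GRCm38.p6.

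Fits were run on all clusters with limma 3.58.1 in R 4.3.3, with Benjamini-Hochberg adjustment over all of them, and were tested on simulated data. Calls needed an adjusted p under 0.05 and 2-fold. Named genes were the members, pathway genes past a test (up to 3 per list otherwise) and the 4 most correlated genes per member. The members, lists and tests were chosen with earlier results of these data known. Alternatives were other scalings, filters, thresholds, curves and blocks, and each array left out. No protein sequences were used here.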

Additional observations from a re-analysis of the deposited data

Results flagged for a closer look

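The lines went opposite ways for Nodal at day 5 of Dox. Its change from day 0 was -0.55 in 6C, while 1B changed by 0.56, so that 6C minus 1B came to -1.11. With 1 array per line and day, the difference was not tested. Both changes were under 2-fold, and the SD of Nodal over the 3 untreated arrays was 0.30.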

How the results depend on the processing

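All 4 members kept their calls in iPS cells and in the 6C series with quantile normalization, with arrays centred on the median, with the filter on low values (mean of at least 6, 13137 clusters) and with the 1.5-fold and 0.10 thresholds. In fits without 1 array each, 2 to 4 members and 80 to 928 clusters were called in iPS cells, in place of 4 and 2044, and 1 to 4 members and 151 to 743 clusters in the 6C series, in place of 4 and 1485. With run as a fixed block 0 members and 0 clusters were called in the series, with 2 residual degrees of freedom, and over days 0 to 21 alone 1 member and 194 clusters were. The clusters called were 3218 and 3072 with the filter on low values, and 3827 and 2936 at an adjusted p under 0.10. At day 5 centring called 593 clusters and 0 members. The cause of these shifts was not tested, beyond the fewer arrays or clusters in each fit. The Nodal change at day 5 was 0.009 as deposited, -0.012 with quantile normalization and -0.088 with centring, with no call in any. By array values the onset moved to day 30 for Nodal and day 5 for Gdf3; with 1.5-fold or the untreated mean as day 0 it stayed at day 21 and day 2. Gdf3 kept 42.0% of its 1B change as deposited, 41.8% with quantile normalization and 44.1% with centring. Run as a random block could not be fitted for iPS against untreated cells, where only run 2 held more than 1 array. Leaving out an array at day 5 left no residual degrees of freedom, so no such test was run, and no member had a further cluster to try. The day 5 fit had line as its block; with no replicate block it called 0 members and 0 clusters, as with the block. Single arrays limit the precision throughout, and low values near the floor of RMA are compressed.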
